A study of Mus musculus with 3 samples.

Results

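Cholesterol and fatty acid synthesis is covered here by 36 genes of the mevalonate, sterol and fatty acid routes and of their control by SREBP transcription factors. They were chosen by gene symbol, and all 36 were found among the 41743 symbols of the count tables. The RNA came from K7M2 cells, a mouse osteosarcoma line, in which the Ezr gene had been knocked out with CRISPR/Cas9 and ezrin put back by transfection of the T567A form. All libraries share this genotype, the cells were not treated, and cells with normal ezrin were not analysed here. Ezrin links the plasma membrane to actin, and T567A removes a threonine whose phosphorylation opens the protein. RNA was recovered by immunoprecipitation (IP) with an antibody to ezrin in 2 libraries (replicates 1 and 2) and with normal mouse IgG in 1 library, which is the background. Nothing in the labels ties the 2 ezrin libraries to separate cultures, and p-values therefore measure the spread between these samples, which may be technical. Every difference below rests on the same single IgG library.

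Cholesterol is built from acetyl-CoA. Soluble enzymes make mevalonate and turn it into farnesyl diphosphate, and enzymes held in the membrane of the endoplasmic reticulum (ER) turn that into squalene, lanosterol and cholesterol. Fatty acid synthesis has the same split, since acetyl-CoA carboxylase and fatty acid synthase work in the cytosol, whereas desaturases and elongases sit in the ER membrane. Both routes answer to SREBP, which is made as an ER membrane protein. When sterols are low, Scap carries SREBP to the Golgi for cleavage, and Insig proteins keep it in the ER when sterols are high. Messages for ER membrane proteins are translated at the ER surface, and those of cytosolic enzymes mostly on free ribosomes.

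Counts totalled 19676595, 16196329 and 10124580 in ezrin replicate 1, ezrin replicate 2 and IgG, and values of the 3 libraries are given in that order throughout. Protein-coding genes held 97.5%, 98.1% and 74.7% of the counts, and the 36 genes held 0.527%, 0.511% and 0.474% of the protein-coding counts. CPM are counts relative to a library total of 1e6, scaled by edgeR's TMM factors. They are shares of a library, so neither the amount of RNA recovered nor the number of cells can be read from them. Ezr itself had 7003, 5879 and 1479 counts, which cannot tell the transgene from the gene's own transcript. Of 10 osteoblast markers, Col1a1, Col1a2, Sparc, Spp1 and Runx2 ranged from 35.8 to 2934 CPM, and Sp7, Alpl, Bglap, Bglap2 and Ibsp were between 0 and 3.45 CPM. Of 8 adipocyte markers, 6 had no count in any library, and the list summed to 2.59, 2.92 and 1.57 CPM. Macrophage markers summed to 991, 899.6 and 1256 CPM, nearly all of it Csf1r, with Adgre1 and Ptprc at 0. Endothelial and epithelial markers summed to at most 2.82 and 0.314 CPM. The part of these markers in the results below was not tested.

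Messages of the soluble enzymes were mostly richer in the ezrin libraries than in IgG, and those of the ER membrane enzymes were split between higher, lower and uncalled. In the quasi-likelihood test of edgeR, with p-values adjusted by Benjamini-Hochberg over all 12478 genes tested, 8 of 10 soluble enzymes were higher and 0 lower (0 also at an unadjusted p under 0.05 and by DESeq2). Of 16 ER membrane enzymes, 4 were higher, 2 were lower and 10 were not called. Of 5 SREBP control genes, 0 were higher (0 also at an unadjusted p under 0.05 and by DESeq2) and 3 were lower. Of 5 enzymes tied to other or several membranes (Acacb and 4 acyl-CoA synthetases), 2 were higher and 0 lower (0 also at an unadjusted p under 0.05 and by DESeq2). Together 14 of the 36 genes were higher (38.9%) and 5 lower (13.9%), beside 19.0% and 17.4% of all genes tested. All 36 passed the filter on low counts. The counts of calls moved with the setting. With library size as the sole scaling, which moves the median of all genes from -0.02 to 0.10 on the log2 scale, 17 were higher and 2 lower, beside 23.0% and 14.1% of all genes. With limma on log2 of RPKM + 1, which moves that median to 0.22, 19 were higher and 0 lower (0 also at an unadjusted p under 0.05), beside 29.9% and 7.73%. With RPKM + 0.1 the counts were also 19 and 0, beside 30.0% and 6.76%. DESeq2 gave 12 and 2, beside 14.0% and 8.82%, and edgeR with no filter, which moves the median of all genes to 0.07, gave 17 and 2, beside 15.0% and 10.8%. DESeq2 left the median of all genes near 0 (-0.0085). Other settings that did so gave counts equal or close to those of the reported fit. DESeq2's size factors in edgeR gave 15 higher and 4 lower, beside 19.2% and 16.9%. Cyclic loess gave 14 and 5, beside 18.2% and 17.8%, and a filter at a mean of 10 CPM gave 13 and 6, beside 21.4% and 21.7%. That filter kept 33 of the 36 and dropped Tm7sf2, Ebp and Acacb. Protein-coding scaling gave 14 and 5, beside 2292 genes higher and 2260 lower of all 12478 tested. The ER membrane enzymes alone counted 6 higher and 0 lower with library size (2 lower at an unadjusted p under 0.05) and with no filter (3 lower unadjusted). They counted 8 and 0 in both RPKM settings by limma (0 lower unadjusted), and 2 and 1 by DESeq2. With cyclic loess they counted 5 and 2, and with the 10 CPM filter, which dropped Tm7sf2 and Ebp, 3 and 3. The soluble enzymes counted 7 higher with cyclic loess and 8 in each of the other settings with a test, with 0 lower in all of them (0 also unadjusted).

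The median log2 fold, ezrin over IgG, was 1.17 for the soluble enzymes and 0.12 for the ER membrane enzymes, beside -0.02 for all genes tested and 0.03 for protein-coding genes. The plain CPM ratio gave soluble medians of 1.17 and 1.10 in ezrin replicates 1 and 2, and ER membrane medians of 0.21 and 0.09. The ER membrane median lay 1.05 below the soluble one. It was lower in each of the 17 other settings and groupings tried, by 0.64 to 1.40. Settings that differ only in how libraries are scaled shift all log2 folds together and could not change this gap. The smallest gap came from the cholesterol route alone, where the medians were 1.20 and 0.55. The largest came from the fatty acid route alone, with medians of 1.13 and -0.27. Both ezrin libraries lay above IgG for 9 of 10 soluble enzymes and for 8 of 16 ER membrane enzymes, beside 42.6% of all genes tested. Both lay below IgG for 0 of 10 and 6 of 16, beside 44.3%. The gap between the classes is a description. Its genes are not replicates, and 2 libraries against 1 cannot go below p = 0.333 in a one-sided exact permutation test.

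**Figure D1:**
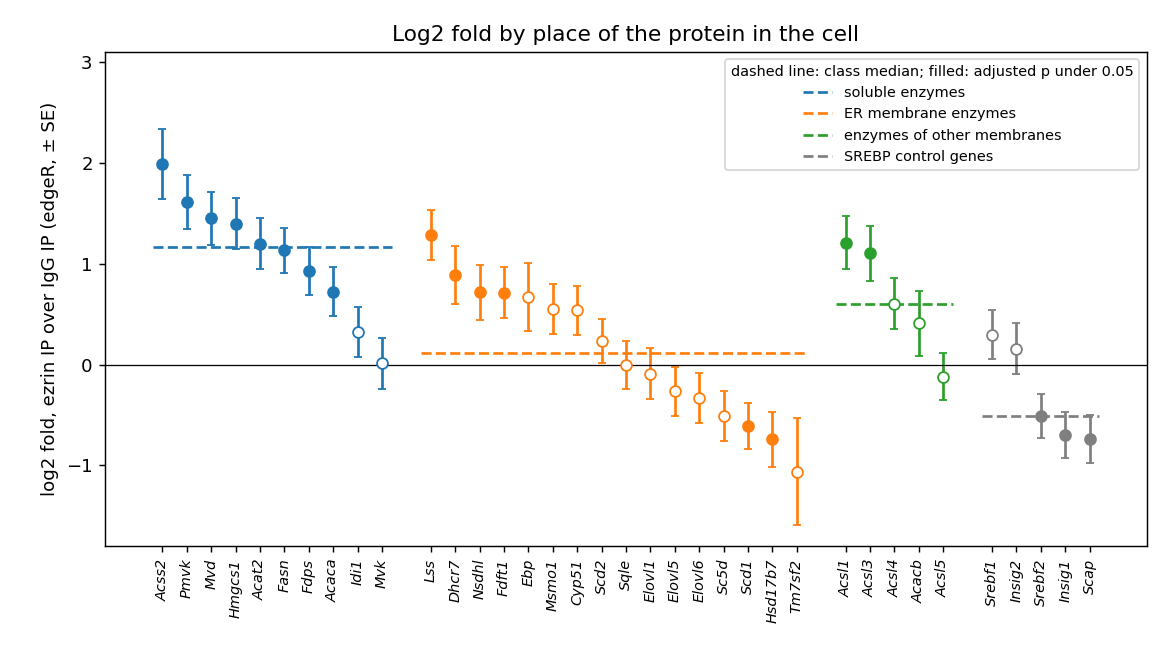
Log2 fold of each of the 36 genes (ezrin IP, n = 2, over IgG IP, n = 1, from edgeR) by where the protein works, with the SE as bars, filled points for adjusted p under 0.05 and a dashed line at each class median. Soluble enzymes run from 0.01 to 1.99, ER membrane enzymes from -1.06 to 1.28, and 3 of 5 SREBP control genes lie below 0 as filled points.

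Promoters of the 36 genes were searched for letters known from sterol genes. RefSeq promoters of GRCm38.p6 (250 bases before to 50 after the start) were matched for 31 of the 36 genes, not for Fdps, Fdft1, Sqle, Scd1 and Scd2. The letters CCAAT, the box read by NF-Y, a partner of SREBP at sterol genes, were found on either strand in 26 of 31 genes (83.9%). They were in 44.1% of the 9547 tested genes with a promoter and in 41.1% of all 27025 genes with one. The box was present in 7 of 9 soluble enzymes, 11 of 12 ER membrane enzymes and 4 of 5 SREBP control genes. By call it was in 10 of 12 higher, 3 of 4 lower and 13 of 15 uncalled members, and among all tested genes in 45.4%, 43.4% and 43.9%. The core of the sterol regulatory element, TCACNCCAC, was in Hmgcs1 and Acsl1 (6.45% of members against 1.26% of tested genes). The E-box CACGTG, the same on both strands, was in 6 of 31 (19.4%), against 1142 of the 9547 tested genes. They were 4 of 12 ER membrane enzymes and 2 of 5 SREBP control genes (Hsd17b7, Sc5d, Dhcr7, Elovl5, Insig1 and Scap), and 0 of 9 soluble enzymes held it. The GC box GGGCGG, searched on both strands, was in 24 of 31 (77.4% against 69.2%). A gene with several annotated starts counts as matched if any of its windows held the letters. A CCAAT box and a GC box shared 2 bases in Elovl1, and other matches to different motifs did not overlap. Stretches of 120 bases are printed for 4 higher and 2 lower genes, chosen after the matches were seen, to show the letters upstream of genes with opposite calls. They run 5′ to 3′ on the gene's strand, and capitals mark TCACNCCAC, CCAAT and CACGTG or their reverse complements. In Fasn a forward and a reverse CCAAT share 2 bases. The Acsl1 stretch lies upstream of an annotated start inside the gene. The window at the first start of Acsl1 held neither TCACNCCAC nor CCAAT.
Hmgcs1 (higher, chr13:119690114-119690233, plus strand): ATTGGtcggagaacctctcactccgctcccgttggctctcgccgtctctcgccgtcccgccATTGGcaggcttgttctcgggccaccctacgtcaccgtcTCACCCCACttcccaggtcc
Mvd (higher, chr8:122443423-122443542, minus strand): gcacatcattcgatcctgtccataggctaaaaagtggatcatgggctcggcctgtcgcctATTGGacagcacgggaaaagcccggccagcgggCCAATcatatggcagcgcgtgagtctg
Fasn (higher, chr11:120824548-120824667, minus strand): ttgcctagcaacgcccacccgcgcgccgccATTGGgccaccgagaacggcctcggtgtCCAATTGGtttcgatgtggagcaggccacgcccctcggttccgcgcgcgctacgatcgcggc
Acsl1 (higher, chr8:46490846-46490965, plus strand): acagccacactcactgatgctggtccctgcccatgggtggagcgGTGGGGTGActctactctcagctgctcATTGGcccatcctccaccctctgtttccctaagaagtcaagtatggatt
Hsd17b7 (lower, chr1:169969251-169969370, minus strand): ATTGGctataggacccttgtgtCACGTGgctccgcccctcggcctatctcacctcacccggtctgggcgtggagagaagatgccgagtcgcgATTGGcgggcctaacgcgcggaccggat
Insig1 (lower, chr5:28071292-28071411, plus strand): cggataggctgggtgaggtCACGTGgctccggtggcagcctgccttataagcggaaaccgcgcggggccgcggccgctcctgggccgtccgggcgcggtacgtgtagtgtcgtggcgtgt
Over the whole promoters searched, CCAAT on either strand was found 4 times in Hmgcs1, 3 times in Fasn, 2 times in Mvd, 2 times in Acsl1, 3 times in Hsd17b7 and 1 time in Insig1, outside its printed stretch. A match is a description of letters and not a bound site.

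Of the 7 mevalonate enzymes, 5 were higher and 2 were not called, with a median log2 fold of 1.20. Acat2, the cytosolic thiolase that joins acetyl-CoA units (chromosome 17, 12943042 to 12960725, GRCm38.p6), had 3868, 3594 and 848 counts, or 193, 214 and 88.6 CPM. Both ezrin libraries were above IgG, a 2.30-fold difference (log2 fold 1.20, SE 0.25, edgeR adjusted p = 1.98e-05). Hmgcs1, the HMG-CoA synthase of the cytosol (chromosome 13, 119690351 to 119708260), had 3822, 3996 and 780 counts, or 190.5, 238 and 81.5 CPM. Hmgcs1 was 2.63-fold higher (log2 fold 1.39, SE 0.25, edgeR adjusted p = 6.88e-07). Pmvk, which adds the second phosphate to mevalonate (chromosome 3, 89454541 to 89469014), had 2031, 1564 and 304 counts, or 101, 93.2 and 31.8 CPM. At 3.06-fold it had the largest difference of the 7 (log2 fold 1.61, SE 0.27, edgeR adjusted p = 3.97e-08), and its ezrin libraries lay close together.

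Mvd, which makes isopentenyl diphosphate (chromosome 8, 122433596 to 122443422), had 2611, 1897 and 426 counts, or 130.1, 113 and 44.5 CPM. It was 2.73-fold higher in ezrin (log2 fold 1.45, SE 0.26, edgeR adjusted p = 5.28e-07). Fdps, the farnesyl diphosphate synthase (chromosome 3, 89093588 to 89101967), had 7575, 5766 and 1812 counts, or 377, 344 and 189 CPM. It was the mevalonate gene with the most counts and differed 1.90-fold (log2 fold 0.93, SE 0.24, edgeR adjusted p = 0.00057). Mvk, the mevalonate kinase, which acts before Pmvk in the route, was at 49.8, 38.6 and 43.9 CPM. Its ezrin libraries lay on either side of IgG and it did not pass (log2 fold 0.01, SE 0.25; edgeR adjusted p = 0.978). Idi1, the isomerase of isopentenyl diphosphate, was at 58.8, 76.8 and 54.2 CPM, with a log2 fold of 0.32 (SE 0.25) that did not pass (edgeR adjusted p = 0.320).

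**Figure D2:**
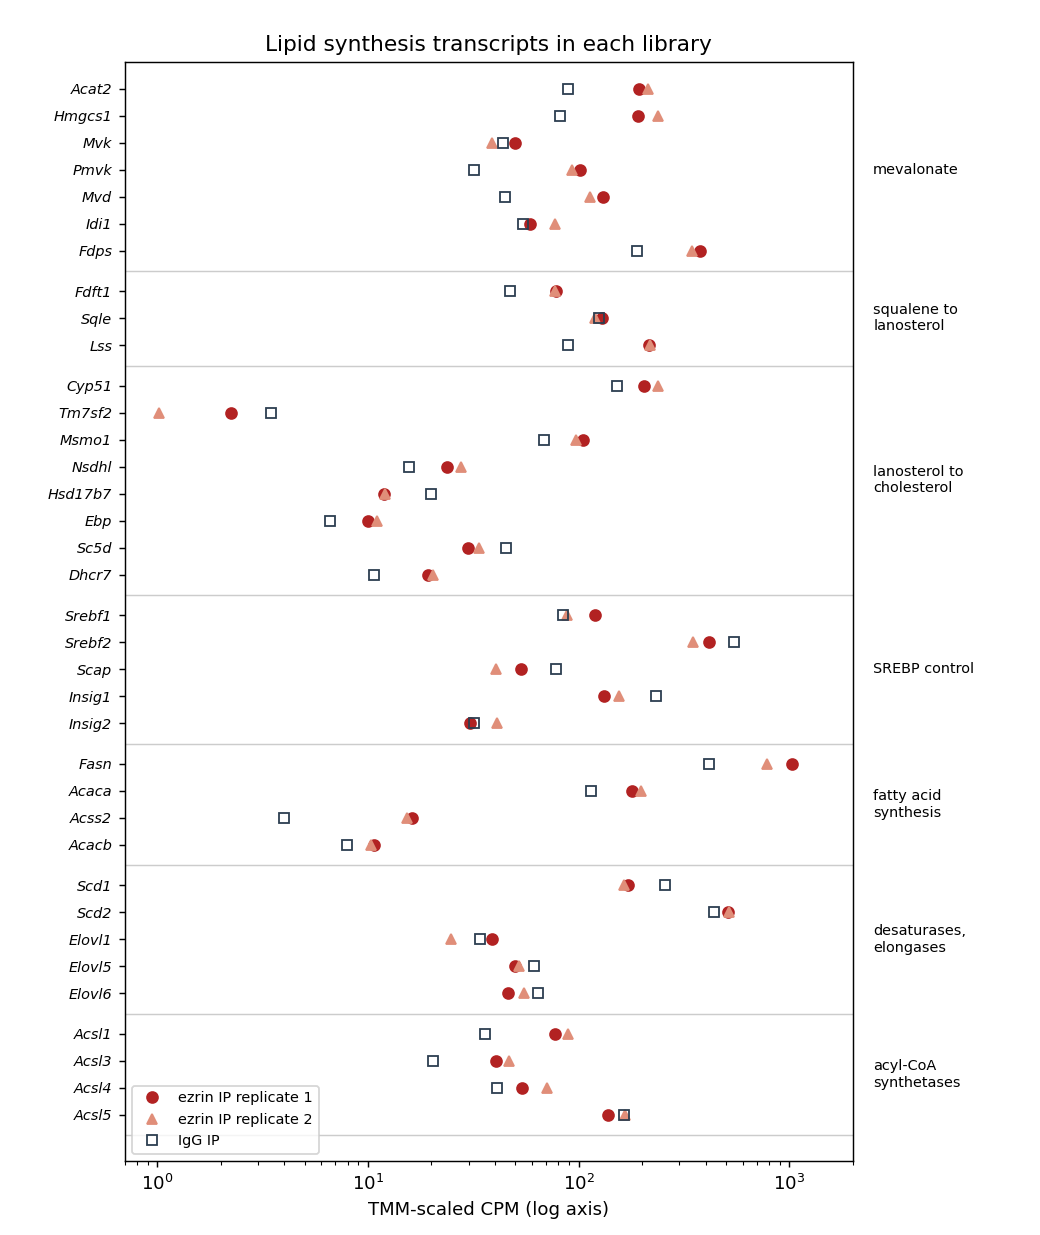
TMM-scaled CPM (log axis) of each of the 36 genes in ezrin IP replicate 1 (filled circles), ezrin IP replicate 2 (triangles) and IgG IP (open squares), grouped by role. In the mevalonate group the IgG square lies left of both ezrin points for 6 of 7 genes, and among desaturases and elongases for 1 of 5.

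The enzymes from squalene to lanosterol are bound to the ER membrane, and 2 of 3 were higher. Fdft1, the squalene synthase (chromosome 14, 63145150 to 63181687), had 1570, 1287 and 453 counts, or 78.2, 76.7 and 47.3 CPM. The ezrin libraries were nearly equal and 1.64-fold above IgG (log2 fold 0.71, SE 0.25, edgeR adjusted p = 0.0175). Fdft1 overlaps Ctsb by 774 bases in the annotation, and Ctsb had 9156, 6948 and 2374 counts. The labels do not state whether counting used strand, so part of the Fdft1 counts may belong to Ctsb. Lss, the lanosterol synthase (chromosome 10, 76531565 to 76557139), which dips into the membrane without crossing it, had 4324, 3637 and 849 counts, or 215, 217 and 88.7 CPM. It was 2.44-fold higher (log2 fold 1.28, SE 0.25, edgeR adjusted p = 4.64e-06), the highest fold of all 16 ER membrane enzymes. Sqle, the squalene epoxidase between them in the route, had 2585, 2001 and 1190 counts, or 129, 119 and 124 CPM. IgG lay between the ezrin libraries, and the log2 fold of -0.0035 (SE 0.24) did not pass (edgeR adjusted p = 0.993).

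Of the 8 enzymes from lanosterol to cholesterol, 2 were higher, 1 was lower and 5 were not called. Nsdhl, a sterol dehydrogenase of the demethylation steps (chromosome X, 72918521 to 72958528), had 477, 461 and 149 counts, or 23.8, 27.5 and 15.6 CPM. Both ezrin values exceeded IgG (log2 fold 0.72, SE 0.27, edgeR adjusted p = 0.0279), but with DESeq2 the call was lost (adjusted p = 0.143), and it was also lost at a mean of at least 10 CPM. Over the 9 alternatives with a test its adjusted p ran from 0.0096 to 0.143. Dhcr7, which makes cholesterol in the last step of one branch (chromosome 7, 143823167 to 143848410), had 385, 341 and 102 counts, or 19.2, 20.3 and 10.7 CPM. It was 1.85-fold higher (log2 fold 0.89, SE 0.29, edgeR adjusted p = 0.00828), with DESeq2 as the exception (adjusted p = 0.0886, the highest of a range that began at 0.00255). Hsd17b7, a ketosteroid reductase of the same steps (chromosome 1, 169949535 to 169969242), had 239, 201 and 191 counts, or 11.9, 11.98 and 19.96 CPM. It was 1.67-fold lower in ezrin (log2 fold -0.74, SE 0.27, edgeR adjusted p = 0.0223), with the ezrin libraries nearly equal.

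Cyp51, the lanosterol demethylase, was the most abundant of these 8 per length, and had 4085, 3988 and 1456 counts, or 204, 238 and 152 CPM. Both ezrin libraries were above IgG, and it missed the threshold (log2 fold 0.54, SE 0.24, edgeR adjusted p = 0.0638). Msmo1, the methylsterol oxidase, had 2103, 1630 and 658 counts, or 105, 97.2 and 68.8 CPM, and missed it too (log2 fold 0.55, SE 0.25, edgeR adjusted p = 0.0643). Each of these genes passed on the higher side in 4 of 9 alternatives, among them library size as the sole scaling. Ebp, the sterol isomerase, was at 10.02, 10.97 and 6.58 CPM and was not called (log2 fold 0.67). It passed on the higher side in 3 of 8 alternatives, with cyclic loess and in both RPKM settings. Sc5d, the sterol desaturase, was lower in both ezrin libraries, at 29.8, 33.6 and 45.1 CPM, without passing (log2 fold -0.51, edgeR adjusted p = 0.0910). It passed on the lower side in 1 of 9 alternatives, the filter at a mean of 10 CPM. Tm7sf2, a sterol reductase, had 45, 17 and 33 counts, too few to place, and was not called (log2 fold -1.06, SE 0.53).

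The genes that control SREBP ran lower or level. Srebf2, which encodes the SREBP of the cholesterol genes (chromosome 15, 82147269 to 82205379), had 8358, 5851 and 5230 counts, or 417, 349 and 547 CPM. Both ezrin libraries lay below IgG, a 1.43-fold difference at the edge of the threshold (log2 fold -0.51, SE 0.22, edgeR adjusted p = 0.0494). Scap, the escort of SREBP (chromosome 9, 110333288 to 110384949), had 1068, 678 and 748 counts, or 53.2, 40.4 and 78.2 CPM, and was 1.67-fold lower (log2 fold -0.74, SE 0.24, edgeR adjusted p = 0.00887). Insig1, the ER anchor that is itself a target of SREBP (chromosome 5, 28071412 to 28078662), had 2658, 2606 and 2230 counts, or 132, 155 and 233 CPM. It was 1.62-fold lower (log2 fold -0.70, SE 0.23, edgeR adjusted p = 0.00949), whereas Hmgcs1, also a target of SREBP, was higher. Srebf1, the SREBP of fatty acid genes, was at 119.8, 87.6 and 84.4 CPM, with IgG close to ezrin replicate 2 and below replicate 1, and did not pass (log2 fold 0.30, SE 0.24). Insig2 was at 30.4, 41.0 and 32.0 CPM with IgG between the ezrin libraries (log2 fold 0.16, SE 0.26).

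The calls were recomputed in 9 alternatives with a test. Of the 14 higher calls, 11 passed in each of them, the exceptions being Nsdhl, Dhcr7 and, after cyclic loess, Acaca. None of the 5 lower calls passed in all 9 (0 of 5). Srebf2 passed in 3, Hsd17b7 in 4, Scd1 in 5, Scap in 6 and Insig1 in 7, and the RPKM settings lost all 5. Library size, no filter and RPKM moved the median of all genes up. With cyclic loess, protein-coding scaling and the 10 CPM filter all 5 stayed called. DESeq2, where that median was -0.0085, lost Srebf2, Scap and Hsd17b7. DESeq2's size factors in edgeR, where it was -0.0088, lost Srebf2. Why calls were lost was not tested. The log2 folds of the 5 genes stayed below 0 in the 9 alternatives, and came closest to it at -0.13 for Srebf2.

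Of the 4 genes of fatty acid synthesis, 3 were higher, among them the largest fold of the 36 in the reported fit. Acss2, which makes acetyl-CoA from acetate in the cytosol and nucleus (chromosome 2, 155518043 to 155562743), had 326, 256 and 38 counts, or 16.2, 15.3 and 3.97 CPM. It was 3.96-fold higher (log2 fold 1.99, SE 0.35, edgeR adjusted p = 2.55e-07). Its log2 fold was 0.89 with RPKM + 1, where the pseudocount exceeds its IgG level, below that of Pmvk at 1.92. Per length it was among the least abundant, at 1.32 ± 0.0338 RPKM (SD, n = 2) against 0.254 RPKM. These RPKM are not scaled as in the fit, where the difference was 3.96-fold. Fasn, the fatty acid synthase (chromosome 11, 120805958 to 120825166), had the most counts of all 36 genes, with 20644, 13203 and 3966, or 1029, 787 and 414 CPM. The ezrin libraries differed from each other by less than either differed from IgG, and Fasn was 2.19-fold higher (log2 fold 1.13, SE 0.23, edgeR adjusted p = 7.75e-06). Acaca, the cytosolic acetyl-CoA carboxylase (chromosome 11, 84129635 to 84401651), had 3608, 3314 and 1093 counts, or 179.8, 198 and 114 CPM. It was 1.65-fold higher (log2 fold 0.72, SE 0.24, edgeR adjusted p = 0.0113), and after cyclic loess it did not pass (adjusted p = 0.0943, the highest of a range that began at 0.00299). Acacb, the related carboxylase at the mitochondrial surface, was at 10.7, 10.4 and 7.94 CPM and did not pass (log2 fold 0.41, SE 0.32).

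Desaturases and elongases modify the chains that Fasn makes, and of these 5 genes 0 were higher (0 also at an unadjusted p under 0.05) and 1 was lower. Scd1, a stearoyl-CoA desaturase (chromosome 19, 44394450 to 44407709), had 3452, 2760 and 2454 counts, or 172, 165 and 256 CPM. Both ezrin libraries lay below IgG, a 1.52-fold difference (log2 fold -0.61, SE 0.23, edgeR adjusted p = 0.0249). Scd2, its neighbour on chromosome 19 (44293676 to 44306864), had 10228, 8663 and 4175 counts, or 509.7, 516 and 436 CPM. Its ezrin values were slightly above IgG and did not pass (log2 fold 0.23, SE 0.22; edgeR adjusted p = 0.426). Scd2 passed on the higher side in 2 of 9 alternatives, the RPKM settings. Scd1 and Scd2 are related in sequence, and the handling of reads that match both is not known here, so their split is uncertain. Elovl5 and Elovl6, which lengthen polyunsaturated and saturated chains, were at 49.7, 52.0 and 61.1 CPM and at 46.3, 55.1 and 63.8 CPM. Their ezrin values were below IgG in both libraries without a call (log2 folds -0.27 and -0.33). Elovl1, which makes very long chains, was at 38.7, 24.9 and 34.0 CPM (log2 fold -0.09), with IgG between the ezrin libraries. It overlaps the abundant Cdc20 by 53 bases.

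Acyl-CoA synthetases, which activate fatty acids at several membranes, were divided too. Acsl1 (chromosome 8, 46471037 to 46536051), found at mitochondria and the ER, had 1551, 1489 and 344 counts, or 77.3, 88.8 and 35.95 CPM. It was 2.31-fold higher (log2 fold 1.21, SE 0.26, edgeR adjusted p = 4.03e-05). Acsl3 (chromosome 1, 78657825 to 78707743), of the ER and lipid droplets, had 811, 784 and 194 counts, or 40.4, 46.7 and 20.3 CPM, and was 2.15-fold higher (log2 fold 1.10, SE 0.27, edgeR adjusted p = 0.000332). Utp14b, with 303, 307 and 165 counts, lies across Acsl3 over 9777 bases of the annotation. Acsl4, which prefers arachidonic acid, had 1084, 1186 and 392 counts, or 54.0, 70.7 and 40.97 CPM, and missed the threshold narrowly (log2 fold 0.61, SE 0.26, edgeR adjusted p = 0.0501). It passed in 5 of 9 alternatives. Acsl5, the most abundant of these 4 per length, had 2754, 2785 and 1576 counts, or 137, 166 and 165 CPM. IgG lay between its ezrin libraries, and it did not pass (log2 fold -0.12, SE 0.23; edgeR adjusted p = 0.722).

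Ratios within a library do not depend on how libraries are scaled, and by them too the soluble enzymes as a class held more in ezrin. Soluble enzymes held 58.6% (95% exact Clopper-Pearson interval 58.2 to 58.9) and 56.0% (55.6 to 56.4) of the counts of soluble and ER membrane enzymes in the ezrin libraries. In IgG they held 42.6% (42.0 to 43.3). Without Fasn, an alternative added after the data were seen, the shares were 44.1%, 44.4% and 31.3%. Among the cholesterol enzymes alone, the soluble ones held 57.1%, 56.7% and 47.8%. Scd1 held 25.2% (24.5 to 25.97) and 24.2% (23.4 to 24.96) of the counts of Scd1 and Scd2 in ezrin and 37.0% (35.9 to 38.2) in IgG, with the doubt about reads that match both. Insig1 held 81.3%, 79.1% and 87.9% of the counts of both Insig genes, and Srebf1 held 22.3%, 20.1% and 13.4% of those of both Srebf genes. Acacb held 5.62% (4.91 to 6.40), 4.99% (4.29 to 5.76) and 6.50% (5.16 to 8.07) of the counts of Acaca and Acacb, and there the intervals overlapped. Fdps (soluble) and Fdft1 (ER membrane), consecutive in the route, showed little of the class difference. Fdps held 82.8% (82.04 to 83.6), 81.8% (80.8 to 82.6) and 80.0% (78.3 to 81.6) of their counts, and the interval of ezrin replicate 2 overlapped that of IgG. The intervals cover counting error only, and reads are not independent molecules.

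**Figure D3:**
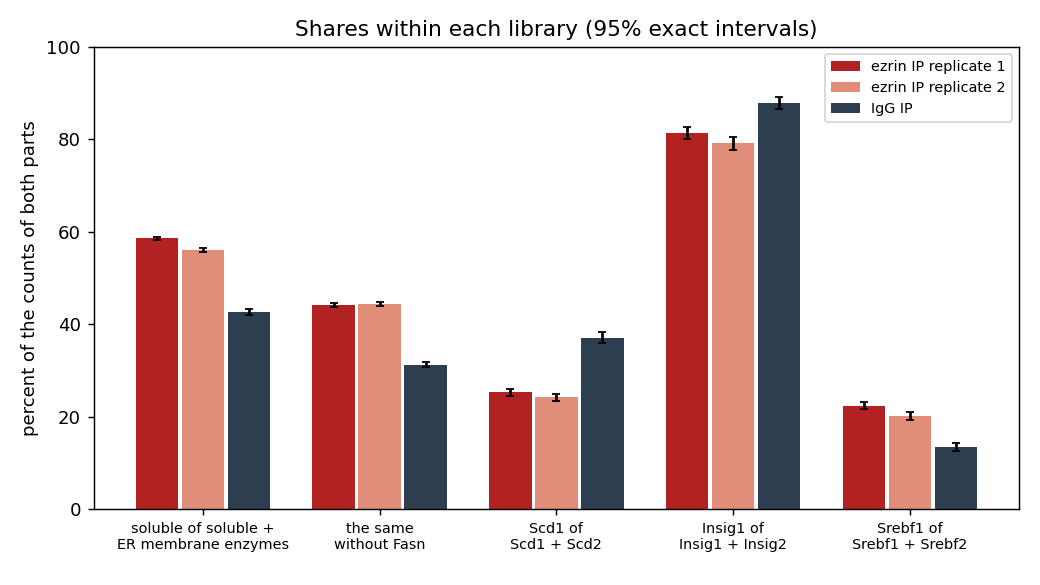
Percent of counts held by the first-named part in ezrin IP replicate 1, ezrin IP replicate 2 and IgG IP, with 95% exact intervals as bars. Soluble enzymes hold 58.6% and 56.0% in the ezrin libraries against 42.6% in IgG, and Scd1 holds 25.2% and 24.2% of the desaturase counts against 37.0%.

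Levels can be compared between genes per length, as RPKM (mean ± SD, n = 2 ezrin libraries, against 1 IgG value). In the ezrin libraries Scd2 had the highest mean at 79.8 ± 2.22 RPKM, followed by Fdps (72.8 ± 3.47), Fasn (70.4 ± 11.96) and Acat2 (68.1 ± 6.34). In ezrin replicate 1 Fasn (78.8) was just above Scd2 (78.3), and the libraries of Fdps, Fasn and Acat2 overlapped with each other. Mvd (55.6 ± 4.48), Pmvk (48.2 ± 1.90) and Srebf2 (45.2 ± 4.83) came next. In IgG the order of RPKM was Scd2 (51.8), Srebf2 (49.4), Insig1 (48.9) and Scd1 (34.0), with Fdps (29.2) in the fifth place. The 4 genes at the top in ezrin were thus an ER membrane enzyme and 3 soluble enzymes. In IgG they were the ER membrane enzymes Scd2 and Scd1 and the SREBP control genes Srebf2 and Insig1. Fasn and Acat2 were in places 6 and 7 there. Ezrin and IgG RPKM are not scaled as in the fit. The median log2 fold of all genes tested was 0.34 with RPKM + 0.1, beside -0.02 in the fit. The median ezrin RPKM was 44.0 for soluble and 11.1 for ER membrane enzymes, and in IgG 11.8 and 6.85. The median lengths of their gene models were 3856.5 and 4879 bases. After a trend of log2 fold on length was subtracted, the gap between the class medians was -1.15.

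Of 30 further sterol genes, 27 were tested, 2 were higher and 5 lower, with a median log2 fold of -0.00066, beside 19.0% higher and 17.4% lower among all genes tested. The protease Mbtps2, which sits in the Golgi membrane and releases SREBP, had 22.5, 29.3 and 61.9 CPM and was 2.39-fold lower (log2 fold -1.26, SE 0.24, edgeR adjusted p = 3.62e-06). Soat1, the ER membrane enzyme that esterifies cholesterol, was at 40.1, 40.8 and 77.3 CPM and was lower (log2 fold -0.93, SE 0.24, edgeR adjusted p = 0.000712). Ufd1, a soluble factor in the removal of ER proteins, was at 68.1, 69.5 and 35.5 CPM and was higher (log2 fold 0.95, SE 0.26, edgeR adjusted p = 0.00148). The ezrin libraries of both genes lay close together. Of 39 further fatty acid genes, 28 were tested, 5 were higher and 4 lower, with a median of -0.12, beside the same shares of all genes. Named after their values were seen, the higher genes included Hsd17b12, an ER membrane reductase of chain elongation, at 92.6, 103 and 49.7 CPM (log2 fold 0.98). Me1, the cytosolic malic enzyme that supplies NADPH, was at 153.9, 156 and 83.1 CPM (log2 fold 0.90). Prkaa1, a catalytic subunit of AMP kinase, and Lpin1, a phosphatidate phosphatase, were higher too (log2 folds 0.86 and 0.77). Agpat3 and Agpat1, acyltransferases of the ER membrane, were lower, at 81.0, 67.2 and 166 CPM and at 69.3, 46.0 and 124 CPM (log2 folds -1.16 and -1.10, edgeR adjusted p = 7.59e-06 and 2.92e-05). Agpat1 varied between the ezrin libraries, both of which lay below IgG.

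Genes of related processes were set beside the 2 classes. Among all genes tested, 19.0% were higher and 17.4% lower, with a median log2 fold of -0.02. Of 30 genes for the ER translocon and N-glycosylation, largely ER membrane proteins, 4 were higher and 5 lower, near these shares. Their median log2 fold was 0.10, close to the 0.12 of the ER membrane lipid enzymes. Of 24 tested genes for fatty acid oxidation, largely enzymes inside mitochondria and peroxisomes, 18 were higher and 1 lower, with a median of 1.004, beside 1.17 for the soluble lipid enzymes. These lists are compared by counts and medians alone, and the differences between them were not tested. They were chosen with earlier results of these data known, so their likeness to the classes is not independent support.

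The gap between the classes was present under each scaling, tool and filter tried, while the level of each class moved with them. Rescaling shifts all log2 folds together, so the presence of the gap under each scaling was fixed beforehand. The gap could change with cyclic loess and with RPKM + 1, where it was -0.95 and -0.89. Cyclic loess, which removes a trend with expression level, set the soluble median at 0.76 and turned the ER membrane median to -0.19. The RPKM settings raised both classes together with all genes.

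**Figure D4:**
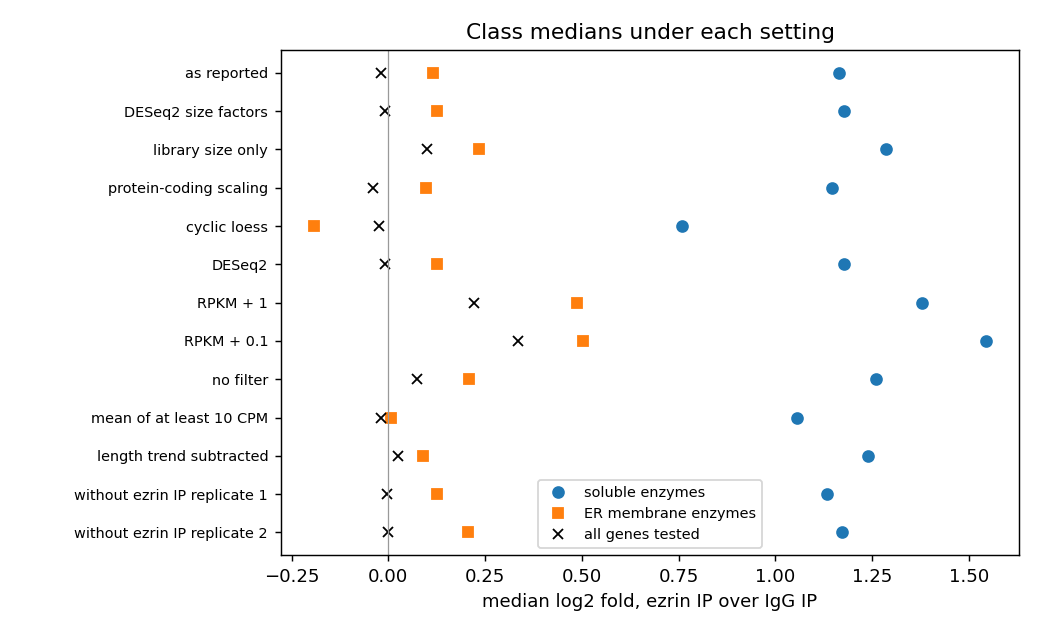
Median log2 fold (ezrin IP over IgG IP) of soluble enzymes (circles), ER membrane enzymes (squares) and all genes tested (crosses) in the reported fit and in 12 other settings. The soluble median lies between 0.76 and 1.54 and the ER membrane median between -0.19 and 0.50, with the soluble one higher in each setting. Scaling alone cannot change their order.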

How the data were processed

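RIP-seq libraries (2 ezrin, 1 IgG) were used. For each library the authors deposited a table of raw counts by gene symbol and a table of RPKM. The build was GRCm38, per the submitters' processing notes, and the sources used here name no aligner, counter, annotation or use of strand. The labels name both rRNA depletion and polyA RNA. The deposited counts were tested with edgeR 4.0.16 in R 4.3.3 (quasi-likelihood, TMM, filterByExpr, Benjamini-Hochberg at 0.05), checked on simulated counts. The fit has 1 residual degree of freedom. The prior degrees of freedom were infinite, so the spread is pooled over genes, and the IgG library is assumed to vary like the ezrin pair. The simulated counts were drawn with the same fitted spread for all libraries, so they cannot test that assumption. SE is the absolute log2 fold over the square root of F. Alternatives used DESeq2 1.42.0 and limma 3.58.1. Gene length came from count over RPKM, set on short noncoding RNAs, and 30407 symbols matched RefSeq. The classes follow textbook topology. Members, classes and lists were chosen with earlier results of these data known. In full are given the called members and the 2 most abundant per length of each role, and of the other pathway lists the 3 largest folds among called genes, of which 1 gene is not reported here.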

Additional observations from a re-analysis of the deposited data

How the results depend on the processing

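No paired analysis was possible because ezrin and IgG share 1 replicate number. Without 1 ezrin library no test can be made. The medians then ran from 0.43 to 0.53 for all 36 genes, 0.12 to 0.21 for ER membrane and 1.13 to 1.17 for soluble enzymes, with gaps of -1.01 to -0.97. With DESeq2's size factors and with protein-coding scaling no count, median or gap moved past the limits set for such a change. For the gap this was fixed beforehand, since scaling shifts all log2 folds alike. With library size as the sole scaling 2 of the 36 were lower, and the medians were 0.59, 0.24 and 1.28. With no filter 2 were lower, with 0.57, 0.21 and 1.26. A filter at 10 CPM on the mean set the class medians at 0.0059 and 1.06, the ER membrane one without Tm7sf2 and Ebp. Cyclic loess gave 0.32, -0.19 and 0.76 and a gap of -0.95. DESeq2 called 1101 genes and 2 of the 36 lower. With RPKM + 1, 3734 genes were higher and 964 lower, 0 of the 36 were lower (limma; 0 unadjusted, against 2 by DESeq2), the medians were 0.71, 0.49 and 1.38 and the gap -0.89. With RPKM + 0.1 the counts were 3745, 843 and 0, and the medians 0.81, 0.50 and 1.54. Subtracting the length trend gave a soluble median of 1.24 and a gap of -1.15. The gap was -0.76 with acyl-CoA synthetases and Acacb counted as ER membrane enzymes, -1.17 with the SREBP control genes counted so, and -1.17 without Lss. For the cholesterol and fatty acid routes alone, groupings added after the data were seen, it was -0.64 and -1.40. Where a value moved, the cause was not tested. Tm7sf2 and Acss2 in IgG rest on under 50 counts.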
